A study of Mus musculus with 10 samples.

Results

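The wide peaks of the Charme pull-down were the 487 peaks of 84 bp or more among the 798 merged peaks (61%) that the authors deposited for ChIRP-seq in mouse myotubes. They were chosen by width alone, so their widths, and everything that moves with width in the same peak calls, are given here as a description without a test. The remaining 311 peaks were narrow, 172 of them 82 bp and 139 of them 83 bp wide. The study examined myotubes differentiated in vitro for 2 days. Chromatin was pulled down with an even and an odd set of probes against the Charme RNA, with LacZ probes and input chromatin as controls, 1 library each. The deposited list does not say which probe set gave a peak, so no peak could be set beside its control. RNA-seq came from 3 groups of 2 libraries named A and B, which the series describes as biological replicates: control myotubes treated with the gapmer GAP-scr, and myotubes in which Charme was depleted with GAP-2 or with GAP-2/3. All 3 groups were differentiated for 2 days in culture, and the labels name neither a cell line nor a strain. Charme itself is not analysed here. The locus that Charme is made from was not marked among the peaks, so peaks there are not told apart from peaks elsewhere.

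Charme is a long non-coding RNA of muscle that stays on chromatin. In ChIRP, biotinylated DNA probes that tile an RNA are hybridised to crosslinked, sheared chromatin, and the DNA recovered with the RNA is sequenced. A peak is a stretch of genome where recovered DNA piled up, and it may reflect contact through proteins or other RNA as well as direct contact. Gapmers are short antisense oligonucleotides with a DNA core that direct RNase H to cut the paired RNA. Myotubes arise when myoblasts fuse into cells with many nuclei, and they build the sarcomere, the contractile unit of which titin is the molecular spring. The microRNAs miR-206 and miR-133b are made from neighbouring hairpins and are classical muscle microRNAs.

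A muscle microRNA hairpin under 1 of the 487 wide peaks lies on chromosome 1. A wide peak of 308 bp at chr1:20682696-20683003 (GRCm38, score 1295.04) contained the whole Mir133b hairpin, with 73 bases of peak before it and 116 after it. The score of this peak was below the lower quartile of the wide peaks, 1835.30. The hairpin lies at chr1:20682769-20682887 on the plus strand and is the only one of 1005 microRNA hairpins of the RefSeq table (GRCm38.p6) that a wide peak touched. In the hairpin the 2 mature arms are in capitals. In the mature microRNAs the seed, bases 2 to 8, is in capitals. The seed of miR-206-3p is not shared with either arm of miR-133b, and its hairpin lay 3.61 kb from the same peak.
Mir133b hairpin: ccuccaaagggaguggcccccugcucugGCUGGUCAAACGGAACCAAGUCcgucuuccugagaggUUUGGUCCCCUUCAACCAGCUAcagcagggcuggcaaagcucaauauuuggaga
mmu-miR-133b-5p: gCUGGUCAaacggaaccaaguc
mmu-miR-133b-3p: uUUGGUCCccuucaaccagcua
mmu-miR-206-3p: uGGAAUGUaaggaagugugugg

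Only 3 wide peaks reached a RefSeq promoter window, the 250 bases before and 50 after a listed gene start, out of 32851 windows. They are shown because they are the wide peaks whose bases can be read beside a start. Capitals mark the bases inside the peak, and each sequence runs 5′ to 3′ on the strand of its gene. C1ql4 encodes a secreted C1q-like protein, and the sequence is chr15:99087729-99087978 on the minus strand. Gm41515 is a predicted protein-coding gene, and the sequence is chr16:88981786-88982035 on the minus strand. A530013C23Rik is a long non-coding RNA, and the sequence is chr2:167690509-167690808 on the plus strand. For both coding genes only the 250 bases before the listed start are printed. The C1ql4 peak also overlapped the span of C1ql4, so the bases printed for it lie at least partly inside the gene.
C1ql4: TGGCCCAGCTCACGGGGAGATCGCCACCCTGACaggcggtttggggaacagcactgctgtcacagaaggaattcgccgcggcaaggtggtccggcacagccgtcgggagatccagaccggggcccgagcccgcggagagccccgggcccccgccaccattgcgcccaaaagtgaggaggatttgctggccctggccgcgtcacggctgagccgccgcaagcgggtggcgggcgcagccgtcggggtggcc
Gm41515: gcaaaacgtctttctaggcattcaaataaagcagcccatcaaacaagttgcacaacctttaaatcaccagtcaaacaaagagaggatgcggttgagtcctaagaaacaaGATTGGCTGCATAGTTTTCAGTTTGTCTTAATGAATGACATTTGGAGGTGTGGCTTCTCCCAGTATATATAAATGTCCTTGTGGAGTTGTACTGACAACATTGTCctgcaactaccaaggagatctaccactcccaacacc
A530013C23Rik: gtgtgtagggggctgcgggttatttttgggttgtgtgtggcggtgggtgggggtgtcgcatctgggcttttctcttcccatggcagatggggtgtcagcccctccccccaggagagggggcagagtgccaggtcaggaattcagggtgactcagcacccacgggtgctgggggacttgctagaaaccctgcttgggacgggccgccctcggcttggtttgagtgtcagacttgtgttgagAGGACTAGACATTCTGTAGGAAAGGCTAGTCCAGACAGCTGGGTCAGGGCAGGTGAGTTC

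These 3 overlaps were unlike one another in base composition. The peak covered 33 bases of the C1ql4 window, of which 69.7% were G or C. It covered 105 bases of the Gm41515 window at 39% and 60 bases of the A530013C23Rik window at 53.3%, while the median over all windows was 52.7%. The letters CAGCTG, 1 form of the E-box that myogenic factors bind, occurred once in the covered part at A530013C23Rik and in 16.3% of all windows on either strand. The letters TATAAA, the core of a TATA box, occurred once in the covered part at Gm41515 and in 13.6% of all windows. Both shares are over whole windows of 300 bases, longer than the covered parts, so they are no measure of how rare these matches are. These are matches of letters and describe no binding.

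Wide peaks were short in absolute terms and their widths fell into steps. They spanned 97 to 858 bp with a median of 130 bp (quartiles 106 and 157) and covered 71674 bases in all. No peak in the list was 84 to 96 bp wide, so the threshold separated the narrow peaks from the next step and not neighbouring values. On the wide side of the threshold 6 peaks of 97 to 99 bp had a median score of 1686.08, and on the narrow side the peaks of 83 bp had a median score of 2979.15. The lowest step, 97 to 120 bp, held 181 wide peaks (37.2%), the next, 122 to 133 bp, held 120 (24.6%), and the one at 146 to 158 bp held 78 (16%). These 3 steps together held 77.8% of the wide peaks, 68 peaks reached 200 bp and 13 reached 300 bp.

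**Figure D1:**
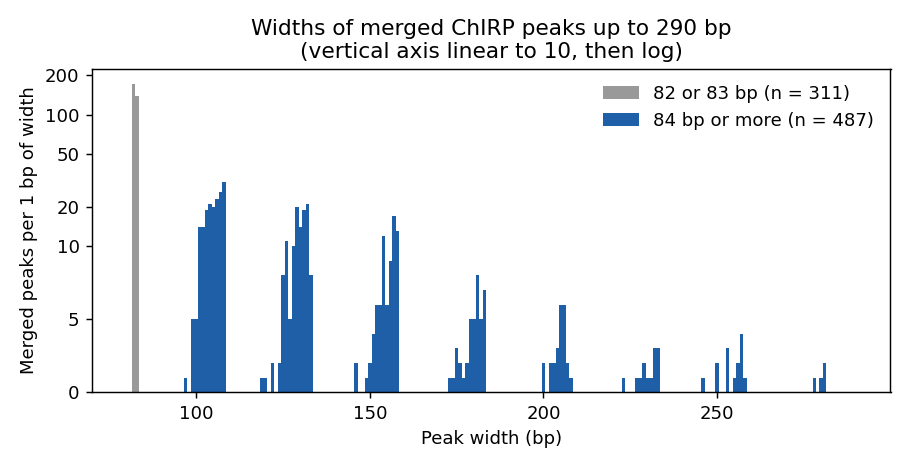
Number of merged peaks (y axis, linear to 10 and log above) at each width in bp (x axis, up to 290 bp), narrow peaks in grey and wide peaks in blue. The widths stand in separate groups about 25 bp apart, the lowest wide group at 97 to 120 bp.

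Peak starts followed the same spacing. Divided by 25, the zero-based start of 442 of 487 wide peaks (90.8%) and of all 311 narrow peaks left a remainder of 20 to 24, where starts spread evenly would give 20%. Most peaks thus sat on a grid of about 25 bp, and their widths grew by the same step.

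The widest peaks had no common setting. The widest of all, 858 bp at chr2:98666446-98667303, had a score of 96.79 and lay 1030 kb from the nearest protein-coding gene, Lrrc4c. The second, 633 bp at chr7:44484821-44485453 with a score of 2473.66, lay inside the long non-coding RNA 5430431A17Rik, from 304 to 936 bp after its start. The next was 452 bp at chr15:43056273-43056724, in Rspo2, which encodes a secreted enhancer of Wnt signalling, with a score of 4909.83. Among the 10 widest, 6 lay in a gene, including Nkain3 (381 bp), the large transmembrane protein gene Csmd3 (356 bp) and the hair keratin-associated gene Krtap9-5 (329 bp). Their scores ran from 96.79 to 5958.31. Whether any of the widest peaks lies at the locus of Charme, the RNA that the probes target, was not examined.

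The score of a wide peak, column 5 of the authors' list, had little relation to its width. The sources used here do not define the score, and it is used only to describe peaks within the list. Wide peaks scored 50.01 to 6383.90 with a median of 2843.25 (quartiles 1835.30 and 4255.93), beside a median of 2913.17 for the narrow peaks. Across the 487 wide peaks width and score had a Pearson r of 0.0434 and a Spearman rho of 0.127. The points share the same pull-downs and the same peak calls. Without the 12 peaks scoring below 100, a limit chosen after the scores were seen, these values were 0.154 and 0.179 over 475 peaks. By step, the median score was 2553.56 at 97 to 120 bp, 2923.65 at 122 to 133 bp and 3207.42 at 146 to 158 bp, and 3151.29 at 173 to 183 bp.

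**Figure D2:**
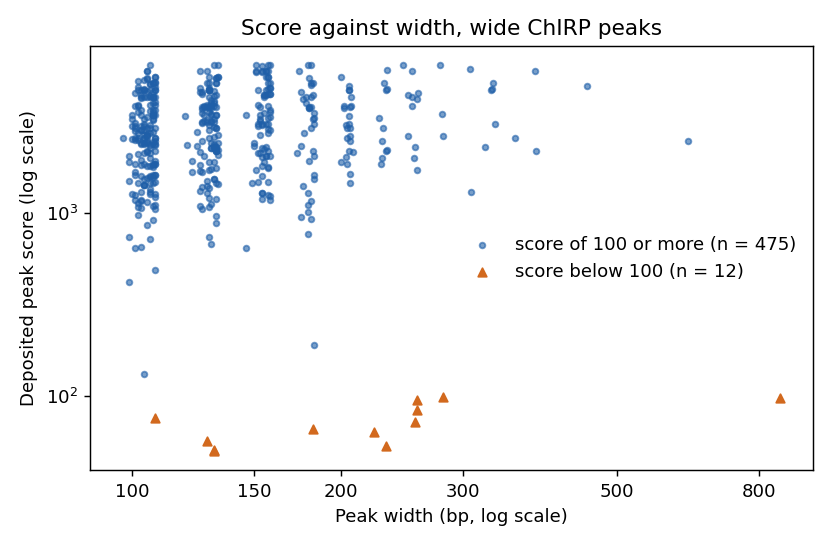
Score from the authors' list (y axis, log scale) against width in bp (x axis, log scale) for the 487 wide peaks, 1 point a peak. Scores cover much of the same range in each of the common width groups, and 12 peaks, drawn as triangles, lie below 100.

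Many wide peaks shared an identical score. The 487 peaks had 338 distinct scores, and 212 peaks had a score in common with another wide peak. Of the 487, 81 (16.6%) had a score within 0.02 of a whole multiple, from 6 to 15, of a step defined as the highest score divided by 15, beside 68 of 311 narrow peaks (21.9%). The highest score, 6383.90, was 15 such steps and was shared by 10 wide peaks of 106 to 278 bp. Of these, 4 lay in a gene: Nav1, a microtubule-binding neuron navigator, Ankrd6, an ankyrin-repeat protein of Wnt signalling, Sema3a, a secreted repulsive guidance cue, and Fbxo25, a substrate receptor of a ubiquitin ligase. Ranks among the highest scores therefore rest on ties.

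The 12 wide peaks below 100 lay in a few places. They scored 50.01 to 98.61, and the next wide peak scored 131.63. The mitochondrial genome held 4 of them, over the respiratory-chain genes ND4, ND5 and ND6. Another 4 lay within chr14:19416546-19418198, 3 within chr2:98662223-98667303 and 1 at chr9:3025471-3025578. None of the 8 nuclear peaks overlapped a RefSeq gene. The wide peak scoring 131.63 lay in a cluster of 10.4 kb with the peak on chromosome 9. Low scores were not particular to wide peaks, as 5 narrow peaks also scored below 100. A run of 6 peaks at chr14:19416171-19418502, 4 of them wide, scored 56.87 to 95.05. Of the 5 mitochondrial peaks 4 were wide.

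Wide peaks lay on all 19 autosomes and X, unevenly, with chromosome 15 the richest. The 483 nuclear wide peaks came to 18.4 per 100 Mb, taking the end of the last RefSeq gene as the length of a chromosome. Chromosome 15 held 50 (10.3% of the wide peaks, 48.1 per 100 Mb), chromosome 11 held 39 (32 per 100 Mb) and chromosome 10 held 40 (30.6 per 100 Mb). The lowest densities were on X, with 11 peaks (6.44 per 100 Mb), chromosome 7, with 13 (8.95), chromosome 19, with 6 (9.79), and chromosome 13, with 12 (9.97). The median chromosome had 17.4 per 100 Mb and Y had none. The density on chromosome 15 was high for all merged peaks too, which came there to 80.8 per 100 Mb, and the share of peaks that were wide was 59.5% on that chromosome. That share ran from 42.9% on chromosome 13 to 76.2% on chromosome 16. Along chromosome 15 the 20-Mb stretch from 80 to 100 Mb held 18 of the 50, and the first 20 Mb held 4.

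**Figure D3:**
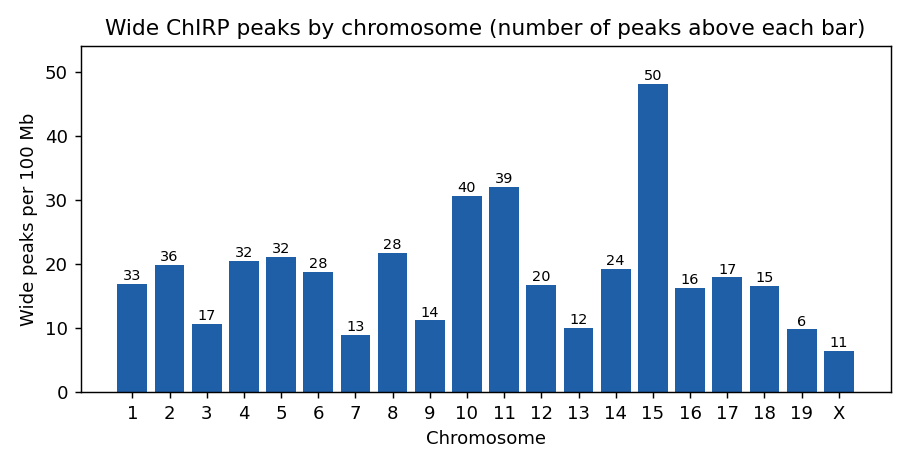
Wide peaks per 100 Mb (y axis, from 0) on each nuclear chromosome (x axis), with the number of wide peaks above each bar. Chromosome 15 stands highest at 48.1 per 100 Mb and X lowest at 6.44.

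Joined wherever the gap to the previous wide peak was at most 1 Mb, 208 of 487 wide peaks (42.7%) fell into 86 clusters and 279 stood alone. Most clusters were small: 62 were pairs, 14 had 3 peaks, 8 had 4 and 2 had 5. Chromosome 15 had 11 clusters with 29 peaks. The number of clusters depends on the gap, with 58 at 500 kb and 27 at 100 kb, and at 1 Mb all merged peaks made 163.

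The 2 clusters of 5 differed in kind. The first, chr14:19416546-19696226, held the 4 wide peaks of chromosome 14 that score below 100, so its size rests on them. The second, chr4:123070923-124759277, spread over 1690 kb with scores of 1048.74 to 4681.53, and its peaks lay among Rragc, which encodes a GTPase that signals amino acids to mTORC1, Inpp5b, an inositol phosphatase, 1700057H15Rik and Gm2164. Clusters of 4 included chr15:81308871-83731053 (2420 kb, with the meiotic gene Mei1), chr15:96104874-97336978 (1230 kb, with the amino acid transporter gene Slc38a1 and Pced1b) and chr5:96708847-99159327 (2450 kb, with the extracellular matrix gene Fras1 and Cfap299). The mitochondrial peaks formed a cluster of 4 within 2.45 kb.

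At close range 28 wide peaks (5.75%) had another peak of either width within 1 kb. In Pde4d, a phosphodiesterase gene that breaks down cyclic AMP, 2 wide peaks lay 117 bp apart at chr13:109902546-109902927, with scores from 3404.75 to 5107.12. In Ccbe1, a secreted factor of lymphatic growth, 2 lay 50 bp apart. Wide peaks with a narrow neighbour lay in Rxrg, which encodes a retinoid receptor, in Prickle1, of planar cell polarity, and in Pygb, a glycogen phosphorylase. Over whole gene spans 7 genes held 2 wide peaks, namely Pde4d, Ccbe1, Fbxo25, Stpg4, Brip1os, 1700019L22Rik and ND5.

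About as many wide as narrow peaks lay in genes, and few lay at listed gene starts. Of 487 wide peaks 266 (54.6%, exact 95% binomial interval 50.1 to 59.1) overlapped a RefSeq gene span, beside 167 of 311 narrow peaks (53.7%, 48 to 59.3). Protein-coding spans held 217 wide peaks (44.6%, 40.1 to 49.1), and 342 (70.2%) lay in a gene or within 10 kb of one. The intervals cover counting error only. Wide peaks overlapped 280 genes, of which 215 were protein-coding with a median length of 113 kb. The median over all 21900 protein-coding genes was 17.1 kb, but a base drawn from their spans lies in a gene of 138 kb at the median. Exons and introns were not separated here. Of the 468 wide peaks on chromosomes with listed starts, 10 (2.14%) lay within 1 kb of one, 100 (21.4%) within 10 kb and 279 (59.6%) within 50 kb, beside 1.65%, 20.8% and 57.4% of 303 narrow peaks. The median distance to a listed start was 31.7 kb for wide and 37.1 kb for narrow peaks. Some starts are not listed. A wide peak inside Fbxo25, a gene of 35.1 kb, lay 85.2 kb from the nearest listed start. These shares and distances therefore describe listed starts only.

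The 10 peaks within 1 kb of a listed start lay on either side of it. Before the listed start were the peaks of Gm41515 (37 to 141 bp before it), C1ql4 (218 to 325 bp), Gm32973 (296 to 473 bp), Nkain2 (533 to 712 bp) and Gm32925 (904 to 1033 bp). The peaks of C1ql4 and Nkain2 still overlapped the spans of these genes, so they lay at least partly inside them. Downstream were those of Krtap9-5 (201 to 529 bp after it), 5430431A17Rik (304 to 936 bp), Cd300a, an inhibitory receptor of immune cells (605 to 762 bp), and Ap1m2, an adaptor subunit of epithelial sorting (636 to 737 bp). The peak of A530013C23Rik crossed the start, from 10 bp before to 94 bp after. None of these genes is in the muscle lists.

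Muscle loci touched by wide peaks were few but included large structural genes. Of 295 genes in lists of sarcomere, excitation-contraction, dystrophin complex, neuromuscular junction, fusion, metabolism and myogenic factor genes and of muscle RNAs and their loci, 4 (1.36%) overlapped a wide peak and 8 (2.71%) lay within 10 kb of one. Over all 49554 RefSeq genes with a position the shares were 0.555% and 0.95%. A single wide peak overlapped both Lincmd1 and Mir133b and lay within 10 kb of Mir206, so that locus counts more than once among the listed genes. The listed genes are longer, with a median of 28 kb against 6.01 kb. Among protein-coding genes 2 of 279 listed genes (0.717%) overlapped a wide peak, beside 0.98% of all 21631, and 4 (1.43%) lay within 10 kb, beside 1.35%. These shares are given side by side with no test.

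Among the 4 overlapped, Lincmd1, a long non-coding RNA that hosts both hairpins and acts as a sponge in differentiation, held the peak over Mir133b and also a narrow peak at chr1:20671046-20671128 (score 1260.99), 11.6 kb away. In Ttn, which encodes titin, the wide peak was 157 bp at chr2:76868147-76868303 with a score of 5107.12. In Utrn, which encodes utrophin, the relative of dystrophin that anchors the cytoskeleton to the membrane, it was 129 bp at chr10:12487597-12487725 with a score of 4798.16.

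Within 10 kb, but outside a wide peak, were Nctc1, Mir206, Atp2a2 and Itga7. Nctc1 is a non-coding RNA gene of the Igf2 and H19 region that muscle enhancers serve. The nearby peak, 183 bp at chr7:142560946-142561128 with a score of 3279.06, lay 2.35 kb from Nctc1, 14.4 kb from H19, 44.7 kb from Tnnt3, which encodes fast troponin T, and 89.6 kb from the growth factor gene Igf2. Atp2a2, the calcium pump SERCA2, lay 7.81 kb from a peak of 104 bp at chr5:122445600-122445703. Itga7, the laminin receptor chain of muscle, lay 8.96 kb from a peak of 99 bp at chr10:128967249-128967347, which had a score of 734.12.

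Expression of the genes under wide peaks was then compared between the groups. Of the 215 protein-coding genes under wide peaks 113 (52.6%) were in the authors' FPKM table, beside 49.8% of all protein-coding genes. In all, 111 genes under 112 wide peaks had a mean of at least 1 FPKM and were tested with limma among 10993 genes, and 2 were below it. The 113 genes under wide peaks in the table had a median level in GAP-scr of 10.3 FPKM (quartiles 4.1 and 21.5, highest 240). The median over all 11228 genes in it was 12.1. Log2 changes below are differences of log2(FPKM + 1), and adjusted p is Benjamini-Hochberg over all genes tested. Both depleted arms share the same 2 GAP-scr libraries. Read depth is unknown, because the table holds FPKM. Rn45s, the ribosomal RNA precursor, stood at 3390 FPKM in GAP-scr A and 4090 in GAP-2 A, against 93.2 to 176 in the other 4 libraries.

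Set against GAP-scr, the mean of both arms called 43 of 111 genes under wide peaks (38.7%), 23 higher and 20 lower, while 34.1% of all tested genes passed, 24.5% higher and 9.57% lower. The 80 genes under narrow peaks alone gave 31 (38.8%), 14 higher and 17 lower. For both directions together the share under wide peaks was thus near the share of all genes. By direction it was not: 20.7% of genes under wide peaks were higher and 18% lower. Under narrow peaks alone 17.5% were higher and 21.2% lower. These shares were not tested. Their median log2 change was 0.03, beside 0.10 over all genes, and the 111 values ran from -0.69 to 0.74. The split by direction moved with scaling: with quantile normalization 13 were higher and 27 lower, and with libraries scaled to one median 13 and 25. Over all genes the split went from 2698 higher and 1052 lower to 1568 and 1695 with the former and 1618 and 1556 with the latter. Without GAP-2 replicate B the count was 25 (22.5%, all genes 20.2%), and without GAP-2/3 replicate A it was 22 (19.8%, all genes 18.9%). Without GAP-scr replicate A the share under wide peaks was the lower one, 34 genes (30.6%, all genes 35.9%).

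By arm, 19 of the 111 genes passed in GAP-2 (17.1%), 11 higher (9.91%) and 8 lower (7.21%). Over all genes 14.6% passed there, 10.4% higher and 4.18% lower. In GAP-2/3 49 passed (44.1%), 25 higher (22.5%) and 24 lower (21.6%). Over all genes 39.3% passed there, 28% higher and 11.3% lower. In both arms 10 genes were called higher and 7 lower, while 32 were called in GAP-2/3 alone, 2 in GAP-2 alone and 60 in neither. These classes were not counted over all genes. Between the arms 15 genes (13.5%) differed, 5 higher (4.5%) and 10 lower (9.01%) in GAP-2/3. Over all genes 10.1% differed, 6.5% higher and 3.65% lower. On the log2 scale defined above, no change in the mean of both arms exceeded 2-fold. That scale makes changes at low FPKM smaller, and fold changes of FPKM itself were not counted. With quantile normalization the split was 6 higher and 10 lower in GAP-2 and 15 and 31 in GAP-2/3, and with libraries scaled to one median it was 6 and 9, and 19 and 27. The split over all genes moved too. With quantile normalization it was 692 higher and 687 lower in GAP-2 and 1820 and 1960 in GAP-2/3. With libraries scaled to one median it was 708 and 648 in GAP-2 and 1928 and 1789 in GAP-2/3.

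Single libraries moved these counts, and the share of all genes moved too. GAP-2 gave 6 (5.41%, all genes 5.39%) and 5 (4.5%, all genes 4.58%) without its replicate A or B. It gave 12 without GAP-2/3 replicate A (10.8%, all genes 8.58%) and 12 without B (all genes 8.57%). GAP-2/3 gave 15 (13.5%, all genes 14%) and 31 (27.9%, all genes 26.8%) without its replicate A or B. The difference between arms gave 24 (21.6%) without either GAP-scr replicate, where 18.5% and 18.7% of all genes passed. It gave 1 and 2 without GAP-2 replicate A or B (all genes 3.19% and 4.85%). It gave 0 by limma without GAP-2/3 replicate A or B (all genes 1.77% and 2.21%), where 26 and 28 of the 111 genes had an unadjusted p below 0.05.

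Gene length moved with these shares, under wide peaks and over all genes. Of 50 tested genes of at least 120 kb under a wide peak 22 passed for the mean of the arms (44%), 9 higher and 13 lower. Of all 1000 tested genes of that length 36.2% passed, 176 higher and 186 lower. Lower genes made 26% of the former and 18.6% of the latter. Of 11 genes under 20 kb with a wide peak 1 passed, beside 32.3% of 4975 genes of that length. The median length of the 111 genes was 101 kb, beside 23.1 kb for all tested genes, and the part of length in the shares above was not tested.

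**Figure D4:**
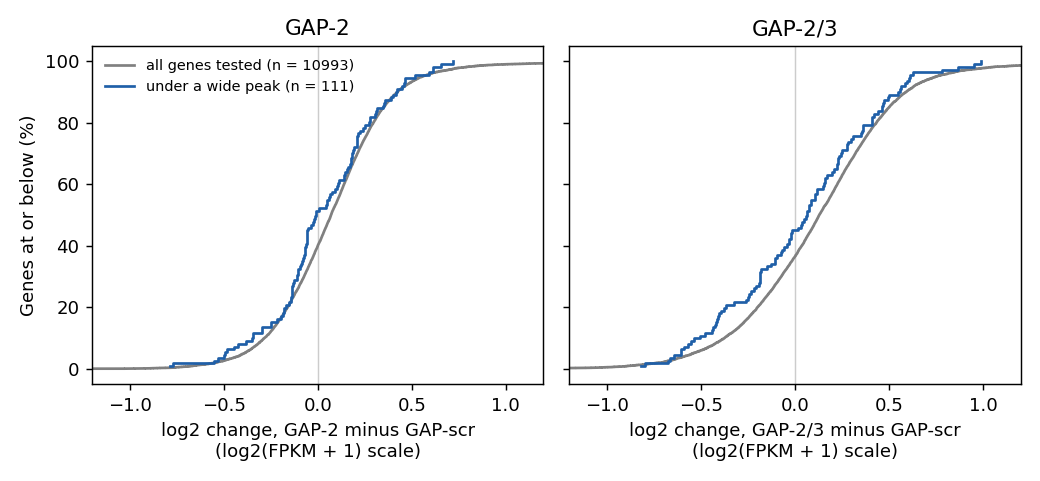
Share of genes in percent (y axis) at or below each log2 change (x axis, log2(FPKM + 1) scale, cropped at both ends) in GAP-2 (left) and GAP-2/3 (right), for the 111 tested genes under a wide peak (blue) and all 10993 tested genes (grey). Both panels use the same GAP-scr libraries, and the medians are -0.01 against 0.07 for GAP-2 and 0.07 against 0.13 for GAP-2/3.

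Among the genes that rose, 2 carried a peak with the highest score. Sema3a stood at 9.62 and 9.65 FPKM in GAP-scr, 13.0 and 14.5 in GAP-2, and 20.5 and 18.7 in GAP-2/3. The 3 groups did not overlap and GAP-2/3 was highest. Its log2 change was 0.71 ± 0.10 (SE) in the mean of both arms (adjusted p = 0.00056), and GAP-2/3 was above GAP-2 by 0.49 (adjusted p = 0.0222). The call of that difference between the arms needed both GAP-2/3 libraries. The Sema3a peak lay at chr5:13331396-13331528. Fbxo25, with 2 wide peaks, stood at 13.1 and 13.3 FPKM in GAP-scr, 19.1 and 19.5 in GAP-2 and 22.5 and 24.2 in GAP-2/3. No depleted library overlapped the controls, and the log2 change was 0.65 ± 0.09 (adjusted p = 0.000658).

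Other genes that rose encode proteins of varied roles. Prrx2, a homeobox transcription factor of mesenchyme, had the largest change among those with a mean of at least 5 FPKM, with 25.8 and 40.8 FPKM in the GAP-scr libraries, 52.8 and 47.9 in GAP-2 and 60.8 and 59.3 in GAP-2/3. The controls lay below every depleted library but apart from each other, and the log2 change was 0.74 ± 0.15 (adjusted p = 0.00355). It was 0.42 without GAP-scr replicate A, below Sema3a at 0.71, Apoo at 0.80 and Fam107b at 0.78, and 1.06 without GAP-scr replicate B. Its peak of 154 bp at chr2:30846575-30846728 scored 6332.97. Antxr1, a collagen-binding anthrax toxin receptor, stood at 10.7 and 9.48 FPKM in GAP-scr and 14.7 to 17.2 in the 4 depleted libraries, without overlap (log2 change 0.62 ± 0.11, adjusted p = 0.00201). Fibroblast markers, 8 of 10 of which were in the table, went both ways, with 2 higher and 2 lower for both arms together, and summed to 3380 to 3410 FPKM in the controls, 2730 to 3170 with GAP-2 and 2080 to 2450 with GAP-2/3, and their part in the changes of Prrx2 and Antxr1 was not tested. Of 6 endothelial markers 0 were listed. Fam107b rose by 0.61 and Apoo, of the mitochondrial MICOS complex, by 0.60. Below them were R3hcc1l (0.53), Nt5dc1 (0.53), the inositol pyrophosphate kinase Ppip5k2 (0.44), the mitochondrial peptidase Mipep (0.39), Arhgdib (0.38) and Dtd1 (0.37), with adjusted p from 0.00325 to 0.0449. Mipep overlapped the controls in GAP-2. By limma, Mipep and Arhgdib passed in GAP-2/3 but not in GAP-2 (adjusted p = 0.46 and 0.255 in GAP-2). Dtd1 passed in neither arm alone (adjusted p = 0.0704 in GAP-2 and 0.0517 in GAP-2/3). The calls of Mipep and Dtd1 were lost without GAP-2 replicate B (0.30 and 0.29) and without either GAP-2/3 replicate, where the changes were about as large (0.41 and 0.36 for Mipep, 0.38 and 0.37 for Dtd1). They were lost for Mipep also without GAP-scr replicate A (0.20) and for Dtd1 without GAP-scr replicate B (0.29). Arhgdib lost the call without GAP-scr replicate A, GAP-2 replicate B or GAP-2/3 replicate B (0.32 to 0.36), and Ppip5k2 lost it without GAP-scr replicate B (0.32). With libraries scaled to one median or quantile normalization neither Mipep (0.30 and 0.28) nor Dtd1 (0.29 and 0.27) passed, and Arhgdib (0.29) did not pass with the former.

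Among the genes that fell were Actg2 and Smtn, both known from smooth muscle. Actg2, smooth muscle gamma actin, stood at 27.5 and 34.7 FPKM in GAP-scr, 16.9 and 18.1 in GAP-2 and 23.4 and 24.1 in GAP-2/3. The groups did not overlap, and the log2 change was -0.57 ± 0.11 (adjusted p = 0.00292). Smtn, which encodes smoothelin of contractile cells, stood at 51.8 and 44.8 FPKM in GAP-scr, 35.2 and 31.0 in GAP-2 and 28.0 and 35.1 in GAP-2/3. Both depleted arms lay below the controls and overlapped each other, and the log2 change was -0.57 ± 0.12 (adjusted p = 0.00419). Of 6 smooth muscle markers 5 were in the table (Myh11 was not listed), 4 of them passed as lower, and they had a summed level of 2140 to 2390 FPKM in the controls, 1400 to 1440 with GAP-2 and 1600 to 1620 in GAP-2/3. Their part in the change of Actg2 and Smtn was not tested. In bulk samples such as these, fewer cells of a type and less RNA per cell cannot be told apart.

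Of the muscle loci, Itga7 fell most. It stood at 371 and 399 FPKM in GAP-scr, 248 and 245 in GAP-2 and 211 and 255 in GAP-2/3. Every depleted library lay below both controls, and the log2 change was -0.68 ± 0.10 (adjusted p = 0.00074). Its peak is near the gene and not in it. Plec, which encodes plectin, the linker of intermediate filaments to Z-discs and membrane, stood at 99.5 and 100 FPKM in GAP-scr, 75.2 and 71.2 in GAP-2 and 68.0 and 81.4 in GAP-2/3. It held a wide peak at chr15:76222275-76222403, its controls lay above all 4 depleted libraries, and the log2 change was -0.43 ± 0.10 (adjusted p = 0.00718).

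Titin and utrophin were less firm. Ttn stood at 28.7 and 17.4 FPKM in GAP-scr, 15 and 16.3 in GAP-2 and 13.6 and 15.5 in GAP-2/3. The controls lay above the depleted libraries, but GAP-scr A was far above GAP-scr B. Arm by arm, Ttn passed in GAP-2/3 (adjusted p = 0.025) but not in GAP-2 (adjusted p = 0.092). The log2 change was -0.54 ± 0.16 (adjusted p = 0.0225), and it was -0.20 and not past the threshold without GAP-scr replicate A, and -0.17 without both libraries highest in Rn45s. Without GAP-scr replicate B it was -0.89. It did not pass without either GAP-2/3 replicate, at -0.50 without A and -0.59 without B. Utrn stood at 27.2 and 24.3 FPKM in GAP-scr, 22.5 and 22.4 in GAP-2 and 16.3 and 18.6 in GAP-2/3, with no overlap between the groups. Its log2 change was -0.36 ± 0.10 (adjusted p = 0.018), from -0.19 in GAP-2 (adjusted p = 0.289) and -0.54 in GAP-2/3 (adjusted p = 0.00459). The difference between the arms had an adjusted p of 0.0794. Without GAP-scr replicate A, either GAP-2 replicate or GAP-2/3 replicate A, Utrn did not pass, at -0.28, -0.36, -0.36 and -0.32.

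Atp2a2 stood at 218 and 189 FPKM in GAP-scr, 189 and 178 in GAP-2 and 143 and 163 in GAP-2/3. All depleted libraries lay below both controls, though GAP-2 A equals the lower control once rounded. The log2 change was -0.15 in GAP-2 (adjusted p = 0.399) and -0.41 in GAP-2/3 (adjusted p = 0.0166). For both arms together it was -0.28 ± 0.10 (adjusted p = 0.0499). It did not pass with a pseudocount of 0.1 or without the intensity trend (-0.28 in each), nor when any library but GAP-scr replicate B was left out, at -0.18 without GAP-scr replicate A and between -0.23 and -0.32 without each of the other 4. Of the muscle lists as a whole, 112 of 237 tested genes were lower and 21 higher for both arms together, with a median of -0.29, where 9.57% of all tested genes were lower. All 9 myotube markers were in the table and summed to 17100 to 18700 FPKM in the controls, 10800 to 11400 with GAP-2 and 13200 to 13300 in GAP-2/3. Their part in the changes of Ttn, Utrn, Atp2a2 and Itga7 was not tested.

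**Figure D5:**
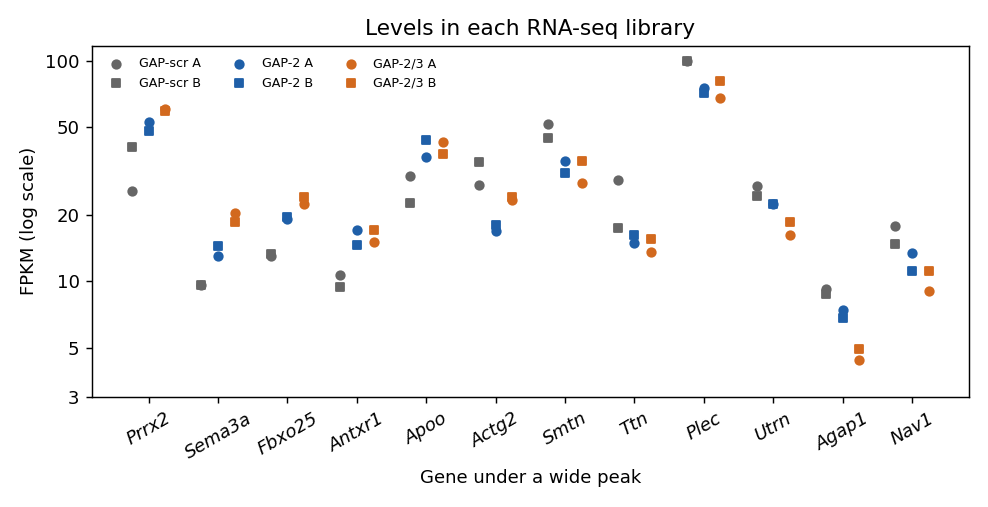
FPKM (y axis, log scale) in each of the 6 libraries for 12 genes under a wide peak, 1 point a library, with groups by colour and replicates A and B by shape. Sema3a and Fbxo25 have all depleted libraries above the controls, Plec has all of them below, and the GAP-scr libraries of Ttn stand apart from each other.

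Genes with other roles fell as well. Agap1, an Arf GTPase-activating protein of endosomes, stood at 9.22 and 8.75 FPKM in GAP-scr, 7.42 and 6.86 in GAP-2 and 4.40 and 4.92 in GAP-2/3. The groups did not overlap. Its log2 change was -0.56 ± 0.10 (adjusted p = 0.00256), and GAP-2/3 was below GAP-2 by a log2 of -0.53 (adjusted p = 0.0188). The call of that difference also needed both GAP-2/3 libraries. Nav1, whose peak had the highest score, stood at 17.9 and 14.8 FPKM in GAP-scr, 13.4 and 11.2 in GAP-2 and 9.05 and 11.2 in GAP-2/3. Its depleted libraries lay below the controls, and the log2 change of -0.51 ± 0.12 (adjusted p = 0.00964) went to -0.39 without GAP-scr replicate A and -0.44 without GAP-2/3 replicate A, neither past the threshold. Arhgap24 fell by 0.43 and Srgap3 by 0.41, with the ubiquitin ligase gene Rnf220 at -0.42, AU040320 at -0.41 and Eif2c2, which encodes Argonaute 2, at -0.38 (adjusted p from 0.00797 to 0.0249). By limma, Agap1, Nav1, AU040320 and Eif2c2 passed in GAP-2/3 but not in GAP-2 (adjusted p = 0.116, 0.0938, 0.488 and 0.201 in GAP-2). Srgap3 passed in GAP-2 but not in GAP-2/3 (adjusted p = 0.164). Srgap3 did not pass without GAP-scr replicate B (-0.29), GAP-2 replicate A (-0.34) or GAP-2/3 replicate A (-0.37). AU040320 and Eif2c2 lost the call without GAP-scr replicate A (-0.31 and -0.24), GAP-2 replicate B (-0.36 and -0.34) or GAP-2/3 replicate A (-0.35 and -0.33).

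Genes under wide peaks that differed between the arms included Gpc6, a glypican that binds growth factors, Armc9, of the primary cilium, and Mex3d, an RNA-binding protein, named after their values were seen. Gpc6 was at 2.30 and 2.70 FPKM in GAP-2 and 1.15 and 1.29 in GAP-2/3 (log2 difference -0.65, adjusted p = 0.00892). Armc9 was at 5.09 and 5.89 FPKM in GAP-2 and 8.58 and 9.34 in GAP-2/3 (0.62, adjusted p = 0.00918). Mex3d was at 14.6 and 14.5 FPKM in GAP-2 and 9.12 and 9.25 in GAP-2/3 (-0.61, adjusted p = 0.0124). In each the arms did not overlap. The size of the difference with a library left out was not worked out for these 3 genes. Their calls, like all those between the arms under wide peaks, needed both GAP-2/3 libraries. A further pair of genes below 5 FPKM had the widest changes of their direction outside the naming rule: Maml3, a Notch coactivator, stood at 3.89 and 4.02 FPKM in the controls, 1.91 in both GAP-2 libraries and 2.35 and 2.17 in GAP-2/3 (-0.69, adjusted p = 0.000793). Robo2, the receptor of Slit guidance cues, stood at 1.31 and 1.11 FPKM in the controls, 2.05 and 1.79 in GAP-2 and 3.05 and 3.74 in GAP-2/3 (0.70, adjusted p = 0.00135). In GAP-2 alone Robo2 did not pass (adjusted p = 0.0616). Pde4d, with its closely spaced pair of wide peaks, stood at 3.33 and 2.36 FPKM in GAP-scr, 2.69 and 2.59 in GAP-2 and 3.17 and 3.42 in GAP-2/3. Its groups overlapped, and the change of 0.05 did not pass (adjusted p = 0.768).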

How the data were processed

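ChIRP-seq peaks and RNA-seq expression of mouse myotubes were used as deposited. Per the labels' protocols, RNA libraries were made with a TruSeq stranded mRNA kit and ChIRP libraries with the NuGEN Ovation Ultralow kit. Named in the submitters' processing notes, without versions or roles, are MACS, bedtools, Bowtie2, Trimmomatic, cutadapt, TopHat2, Cufflinks, Cuffdiff, FastQC and CASAVA. The authors deposited FPKM for 11228 genes (fragments scaled to transcript length and library size) and a list of 798 merged peaks with a position and a score each. The sources used here do not say how the even and odd pull-downs were merged.

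The notes name mm9, but 1 narrow peak on X starts at 170731996, beyond the end of X in that build (a length known in general), so positions are read as GRCm38 and given 1-based. Peaks were set against RefSeq GRCm38.p6 gene spans by at least 1 bp, strand ignored. Chromosome 18 and the mitochondrial genome have no listed starts, and some genes elsewhere, such as Fbxo25, lack one too. Intervals are exact Clopper-Pearson. Symbols matched RefSeq for 10949 of 10993 tested genes (99.6%), 684 of them by an older symbol.

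log2(FPKM + 1), for genes averaging 1 FPKM or more, was fitted with limma 3.58.1 (R 4.3.3), 3 groups together, with an intensity trend, no covariate and a threshold of 0.05 after Benjamini-Hochberg adjustment. P-values measure only the spread between these libraries. The fit was tested on simulated data. Python 3.11.15, pandas 2.3.3, scipy 1.17.1 and matplotlib 3.10.9 were used elsewhere. The members and gene lists were chosen with earlier results of these data known. Named were the 10 highest-scoring and 10 widest peaks, the 5 largest clusters with ties, listed muscle genes within 10 kb, genes with several wide peaks or a wide peak within 1 kb of the start, and the 12 highest and 12 lowest log2 changes among called genes averaging 5 FPKM or more. Alternatives were another pseudocount, filter, scaling, trend, replicate block, left-out library, width, score, gap and overlap.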

Additional observations from a re-analysis of the deposited data

How the results depend on the processing

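Counts of genes under wide peaks past the threshold are given in the order mean of both arms, GAP-2, GAP-2/3 and the difference between arms, and were 43, 19, 49 and 15. Leaving out 1 library at a time gave 22 to 35, 5 to 23, 15 to 44 and 0 to 24 (limma). Restricting to wide peaks with scores at or above the median of all 798 gave 20, 11, 25 and 8 from 239 peaks. The tested genes under those 239 peaks were not counted, so these counts have no share to set beside that of all genes. The 164 tested genes within 10 kb gave 59, 29, 68 and 20 (36%, 17.7%, 41.5% and 12.2%, beside 34.1%, 14.6%, 39.3% and 10.1% of all genes). Leaving out both libraries highest in Rn45s, an alternative chosen after seeing the data, gave 32, 12, 37 and 7 (28.8%, 10.8%, 33.3% and 6.31%, below the 29.6%, 13.7%, 36% and 7.93% of all genes). A width of at least 100 bp changed no count, nor did a score of at least 100, also chosen after seeing the data. Pseudocount, filter, scaling and trend moved no count by more than 1.5 times.

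The labels do not say that the letters A and B pair libraries, and same-letter deviations from the group means correlated at 0.36 for GAP-scr and GAP-2, whose A libraries share the high Rn45s, but at -0.131 and -0.181 for the pairs with GAP-2/3. With the letter as a replicate block the counts were 44, 22, 50 and 18 (39.6%, 19.8%, 45% and 16.2%, beside 35.9%, 17.8%, 40.6% and 13.4% of all genes).

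Clusters numbered 27 at a gap of 100 kb and 163 with all merged peaks, against 86. The share of wide peaks in a gene was 70.2% with 10 kb on each side and 44.6% for protein-coding genes, against 54.6%. Of 26 named genes past the threshold, 14 passed under every alternative run. The change of Pde4d, never past the threshold, turned to -0.11 with quantile normalization, -0.02 with libraries scaled to one median and ran from -0.13 to 0.24 with 1 library left out, lowest without GAP-scr replicate B. Depth is unknown, so counting error at low levels could not be given.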
